A study of Mus musculus with 12 samples.

Results

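Nr5a2 is 1 of 10 nuclear receptor genes described here: Nr5a2, Esrrb, Esrra, Rarg, Rxra, Rxrb, Nr2c1, Nr2c2, Nr6a1 and Nr1h2. They were taken by name and matched by Ensembl identifier, out of 55401 genes listed in the files, and the question was whether the other 9 moved with Nr5a2, against it or not at all when it was depleted. RNA was measured in 12 libraries, each from a pool of 10 mouse 8-cell embryos. The embryos came from superovulated B6129F1 females, 3 to 5 weeks old, mated with B6CBAF1 males, and every group was injected at the zygote stage with siRNA together with H2B-EGFP as a marker of injection. The control received 15 µM non-targeting siRNA (n = 2), Nr5a2 KD 5 µM siRNA against Nr5a2 (n = 3), Klf5 KD 10 µM siRNA against Klf5 (n = 3), and the double knockdown (dKD) both targeting siRNAs (n = 4), at concentrations that the labels do not give for the combination. A siRNA lowers an mRNA without removing the gene, so the knockdown groups keep part of their target. Each library is a pool of whole embryos, so fewer cells with an mRNA and less of it in each cell cannot be told apart. The labels number the replicates without saying whether they came from separate litters or days, and the p-values measure the spread between these libraries. The labels name 2 sequencing instruments without assigning them to libraries, whereas the study's methods give only the Novaseq for RNA-seq.

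Nuclear receptors are transcription factors that bind DNA through a pair of zinc fingers, and many of them are switched by small lipophilic ligands. Their binding sites are built around the hexamer AGGTCA. NR5A2 and the estrogen-related receptors ESRRA and ESRRB bind a single copy of it preceded by a short extension, whereas retinoic acid receptors, liver X receptors and the testicular receptors NR2C1 and NR2C2 bind paired copies, most of them together with a retinoid X receptor. NR5A2 is an orphan receptor known for its part in activating the embryonic genome and in pluripotency, and ESRRB is a core factor of naive embryonic stem cells.

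The bases of the coding sequence that encode the P-box, the stretch of the first zinc finger that reads the hexamer, are given below for the 10 receptors. Capitals mark the positions that differ from Nr5a2. The sequences were read from GENCODE M21 transcripts, and every coding transcript of a gene in which the stretch was found gave the same 18 bases.
Nr5a2: tgcgaaagctgcaagggt
Esrrb: tgcgaGGCTtgcaaggCG
Esrra: tgTgaGGCctgcaaAgCC
Rarg: tgTgaaGgctgcaagggC
Rxra: tgTgaGGgctgcaagggC
Rxrb: tgcgaGGgctgcaagggt
Nr2c1: tgTgaaGgctgcaaAggA
Nr2c2: tgTgaaGgTtgcaaAggt
Nr6a1: tgcgaGGgctgcaagggG
Nr1h2: tgTgaaGgctgcaaAggC
Esrrb and Esrra share 12 and 11 of the 18 bases with Nr5a2, Rxrb 16, Rarg and Nr6a1 15, and Rxra, Nr2c1, Nr2c2 and Nr1h2 14. These are counts of bases, and some base differences leave the amino acid unchanged. They therefore do not rank the proteins by closeness at the part that touches DNA. The Nr5a2 gene lies at chr1:136842571-136960448 (minus strand), Esrrb at chr12:86361117-86521628 (plus) and Nr2c2 at chr6:92091390-92174294 (plus) in GRCm38. In Nr5a2 the stretch runs across an intron that starts in exon 4 (GRCm38 chr1:136943426-136944973, minus strand). In Esrrb it lies in exon 2 (chr12:86470516-86470533, plus strand), in Esrra in exon 2 (chr19:6920085-6920102, minus strand) and in Nr2c2 in exon 6 (chr6:92154358-92154375, plus strand). Over the whole DNA-binding core, identity to Nr5a2 ranged from 50.7% for Nr1h2 to 61.1% for Rxra, and was 60.1% for Esrrb and 55.8% for Esrra. Esrra and Esrrb shared 83.3% of these bases, Rxra and Rxrb 81.3%, and Nr2c1 and Nr2c2 74.7%. By these bases, the closest pairs within the group thus do not include Nr5a2.

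Promoter sequence is shown for Nr5a2 and Esrrb, whose mRNAs moved in opposite directions below. These are the 250 bases before the first RefSeq start of each gene (GRCm38.p6), 5′ to 3′ on the gene's strand, at chr1:136960449-136960698 (minus) and chr12:86360867-86361116 (plus), and capitals mark AGGTCA on either strand.
Nr5a2 promoter: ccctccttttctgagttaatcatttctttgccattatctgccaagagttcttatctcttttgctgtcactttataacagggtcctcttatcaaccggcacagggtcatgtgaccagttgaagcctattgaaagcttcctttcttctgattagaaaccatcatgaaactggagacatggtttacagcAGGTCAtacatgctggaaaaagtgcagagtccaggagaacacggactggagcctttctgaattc
Esrrb promoter: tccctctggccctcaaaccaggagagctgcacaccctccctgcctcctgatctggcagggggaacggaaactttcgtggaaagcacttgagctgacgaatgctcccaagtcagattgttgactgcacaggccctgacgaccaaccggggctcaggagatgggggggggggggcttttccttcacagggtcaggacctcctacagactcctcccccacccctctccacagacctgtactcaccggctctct
The Nr5a2 window holds the hexamer once, 64 bases before the start. It was not found in either RefSeq window of Esrrb, which says only that these letters are not in those bases. The windows searched were longer than what is printed, 300 bases from 250 before to 50 after a start. They were found for 10 of the 10 receptors, 16 in all, and AGGTCA on either strand was in 4 of them (1 each of Nr5a2, Rarg, Rxra and Nr6a1), against 16.3% of 32851 windows of the same length. The longer AAGGTCA, which contains AGGTCA, was in 2 of the 16 (Rxra and Nr6a1), against 4.72%.

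The libraries held 6676683 to 12560926 counts on genes, with a mitochondrial share of 4.41 to 13.2%, which was under 7% in 4 libraries (Nr5a2 KD 3, Klf5 KD 1, dKD 3 and dKD 4). None of the 8 markers of 8-cell embryos was at 0 in any group, and their summed level was 14621 to 17357 CPM (counts scaled to library size by the TMM method) in control libraries. It was 16935 to 19603 in Klf5 KD, 21616 to 29622 in Nr5a2 KD and 19911 to 23015 in dKD, nearly all of it from Dppa3. The summed markers of oocytes and polar bodies came to 64.2 to 126 CPM, and those of cumulus and granulosa cells to 9.31 to 22.1 CPM.

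In control embryos Nr5a2 was the most abundant of the 49 nuclear receptor mRNAs per gene length. Levels between genes are compared in TPM, counts divided by exon length and scaled to the same sum in each library. Nr5a2 stood at 58.3 ± 1.72 TPM (SD, n = 2) and did not overlap the next gene, Nr1d2, at 21.8 ± 4.29 TPM. Nr1h2 followed at 19.9 ± 2.36 TPM, and its range overlapped that of Nr1d2. Nr1h3, a receptor outside the 10, came next at 9.23 TPM, in a range that overlapped Esrra. Esrra was at 8.84 ± 0.110, Nr2c2 at 6.64 ± 0.895, Rarg at 5.72 ± 0.324 and Esrrb at 5.14 ± 0.531 TPM, of which Rarg and Esrrb overlapped. Rxra (3.21 ± 0.326 TPM) lay above Nr6a1 (2.36 ± 0.502 TPM), and Rxrb was at 1.41 ± 1.15 TPM, with an SD close to its mean. Nr2c1, at 0.247 ± 0.0858 TPM, was the lowest member, at rank 20 of the 49. Nr5a1, the only other receptor of the Nr5a family, was at 0 counts in all 12 libraries. In both control libraries, 12 more of the 39 receptors outside the group were at 0.

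The siRNA lowered its target in every library that received it. Nr5a2 was at 225 and 210 CPM in the control libraries. It was at 32.8, 38.7 and 24.1 CPM in Nr5a2 KD and at 28.5, 31.1, 33.8 and 25.2 CPM in dKD. The Klf5 KD libraries, which received no Nr5a2 siRNA, were at 117, 255 and 203 CPM. The libraries with the Nr5a2 siRNA thus lay in a narrow range far below all others, while Klf5 KD 1 stood apart from its group at the low end. The mean was 14.7% of control in Nr5a2 KD and 13.7% in dKD. In edgeR's quasi-likelihood test with Benjamini-Hochberg adjustment over all genes tested, the log2 fold change was -2.74 (SE 0.244, adjusted p = 3.21e-04) for Nr5a2 KD against control, -2.83 (SE 0.202, adjusted p = 1.98e-04) for dKD against control and -2.68 (SE 0.274, adjusted p = 1.38e-04) for dKD against Klf5 KD. Klf5, the other target, was at 443 and 466 CPM in control, 150, 158 and 109 in Nr5a2 KD, 72.7, 117 and 144 in Klf5 KD, and 82.0, 59.8, 42.2 and 39.9 in dKD. Klf5 mRNA was thus also low where only Nr5a2 was targeted (log2 fold change -1.68, SE 0.225, adjusted p = 0.0013), so that Nr5a2 KD and dKD are both short of Klf5 mRNA.

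Of the other 9 receptors, 1 passed the test in Nr5a2 KD: Esrrb rose 2.10-fold, and none fell. With Nr5a2 itself, 2 of 10 receptors passed (adjusted p under 0.05), beside 9.03% of the 13262 genes tested (5.32% lower and 3.72% higher). Both also changed at least 2-fold, beside 7.86% of genes (4.42% lower and 3.45% higher). The median log2 fold change of the 10 was 0.03, and that of all genes 0.04. All 10 passed the filter on low counts in this comparison. The changes of the other 8 lay between -0.39 (Nr1h2) and 1.18 (Nr2c1) and did not pass.

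**Figure D1:**
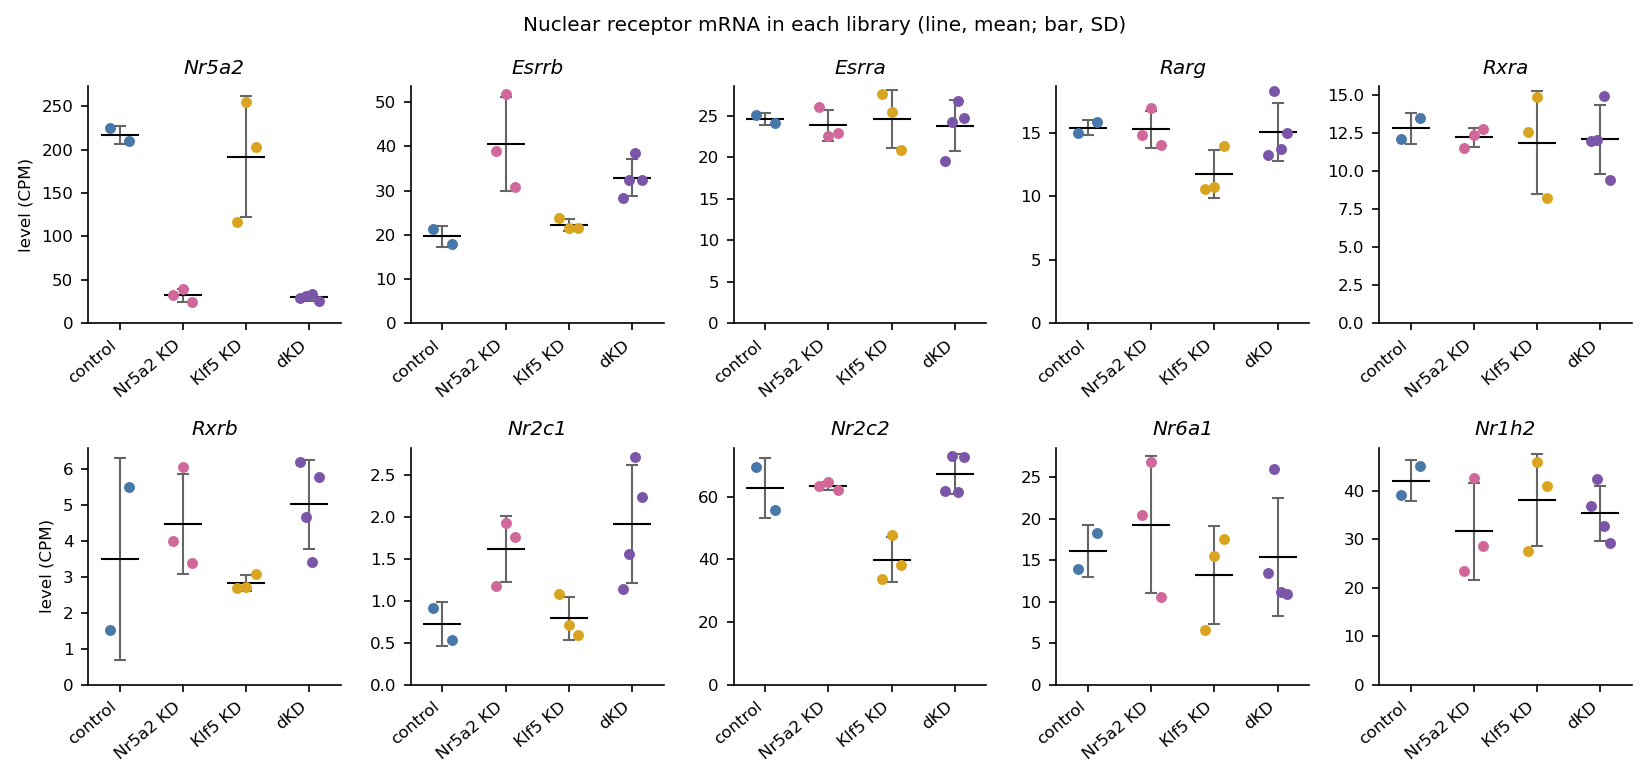
Level of each of the 10 receptors in CPM (vertical axes, each from 0) in every library, by group on the horizontal axis, with points for libraries, a line for the mean and a bar for the SD. Nr5a2 is low in the 7 libraries with its siRNA, Esrrb is higher in those 7 (28.4 to 51.9 CPM) than in the other 5 (17.9 to 23.7 CPM), Nr2c1 is also higher in each of the 7 than in each of the 5, at far lower levels, and the points of Esrra, Rxra, Nr6a1 and Nr1h2 overlap between groups.

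Esrrb was the receptor that moved most clearly against Nr5a2. It was at 21.3 and 17.9 CPM in the control libraries (141 and 134 counts) and at 39.1, 51.9 and 30.8 CPM in Nr5a2 KD. In Klf5 KD it was at 23.7, 21.5 and 21.5 CPM, and in dKD at 28.4, 32.4, 38.5 and 32.3 CPM. Each of the 7 libraries with the Nr5a2 siRNA was above each of the 5 without it. In Nr5a2 KD against control the mean went from 19.6 ± 2.39 to 40.6 ± 10.6 CPM (SD, n = 2 and 3), a log2 fold change of 1.07 (SE 0.284, adjusted p = 0.0361) with a 95% interval of 1.43- to 3.10-fold. The call was lost without control 1 (1.19, adjusted p = 0.182), control 2 (0.96, adjusted p = 0.289), Nr5a2 KD 1 (1.12, adjusted p = 0.0695) or Nr5a2 KD 2 (0.86, adjusted p = 0.0859), and was kept without Nr5a2 KD 3, the library with a low mitochondrial share (1.24, adjusted p = 0.00919).

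In dKD the Esrrb mean was 32.9 ± 4.20 CPM (SD, n = 4), and the log2 fold change against control was 0.79 (SE 0.250, adjusted p = 0.0772), which did not pass. One receptor, Nr5a2, passed in this comparison, beside 8.34% of 13724 genes (4.59% lower and 3.75% higher), and it also changed at least 2-fold, as did 7.24% (3.85% lower and 3.38% higher). The dKD and control values did not overlap for 3 receptors (Nr5a2 lower, Esrrb and Nr2c1 higher), as for 35.2% of all genes. Against Klf5 KD, a comparison that shares no library with Nr5a2 KD against control, Esrrb was higher by 0.57 on the log2 scale (SE 0.231, adjusted p = 0.127). Its values in dKD and Klf5 KD did not overlap, which held for 5 of the 10 receptors and 23.5% of all genes, and the test was not passed. With total counts in place of TMM factors it was (0.79, adjusted p = 0.0414), as it was in a fit that also took in the mitochondrial share (0.61, adjusted p = 0.0487). Esrrb was thus higher in each of the 3 comparisons and passed in 1. Both dKD and Nr5a2 KD were compared with the same control libraries. The direct comparison of dKD with Nr5a2 KD gave -0.30 (SE 0.226, adjusted p = 0.999) for Esrrb, with a 95% interval of 0.599- to 1.11-fold.

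All 12 libraries enter a fit with the presence of each siRNA as a term. There the Nr5a2 siRNA went with a 1.69-fold higher Esrrb level (log2 fold change 0.76, SE 0.179, adjusted p = 0.00519, 95% interval 1.33- to 2.16-fold). Esrrb and Nr5a2 were the 2 receptors that passed, against a background of 21.9% of 14830 genes (11.5% lower and 10.5% higher). Nr5a2 alone also changed at least 2-fold, beside 13.3% (6.55% lower and 6.74% higher). Esrrb passed in each of the 22 other settings of this fit, at 0.66 to 1.14 on the log2 scale and adjusted p of 2.93e-04 to 0.0284, among them each of the 12 fits without 1 library. Of the 10 receptors, 3 had no overlap between the libraries with and without the Nr5a2 siRNA (Nr5a2 lower, Esrrb and Nr2c1 higher), as had 11.7% of the 14830 genes. The summed 8-cell markers, nearly all Dppa3, were also higher in Nr5a2 KD and dKD than in control, but the list was mixed, with 2 of its 8 markers lower (Tead4 and Tfap2c) and 3 higher (Dppa3, Krt8 and Utf1) for the siRNA term, beside 11.5% and 10.5% of all genes. The summed 2-cell markers were 11.8 to 14.5 CPM in control, 11.4 to 27.8 in Klf5 KD, 18.3 to 28.3 in Nr5a2 KD and 14.0 to 45.3 in dKD, and 2 of the 6 tested (Usp17lb and Zfp352) were higher for this term, beside the same 10.5%. Duxf3 was at 0 in control, Nr5a2 KD and dKD. The part of these markers in the Esrrb result was not tested.

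**Figure D2:**
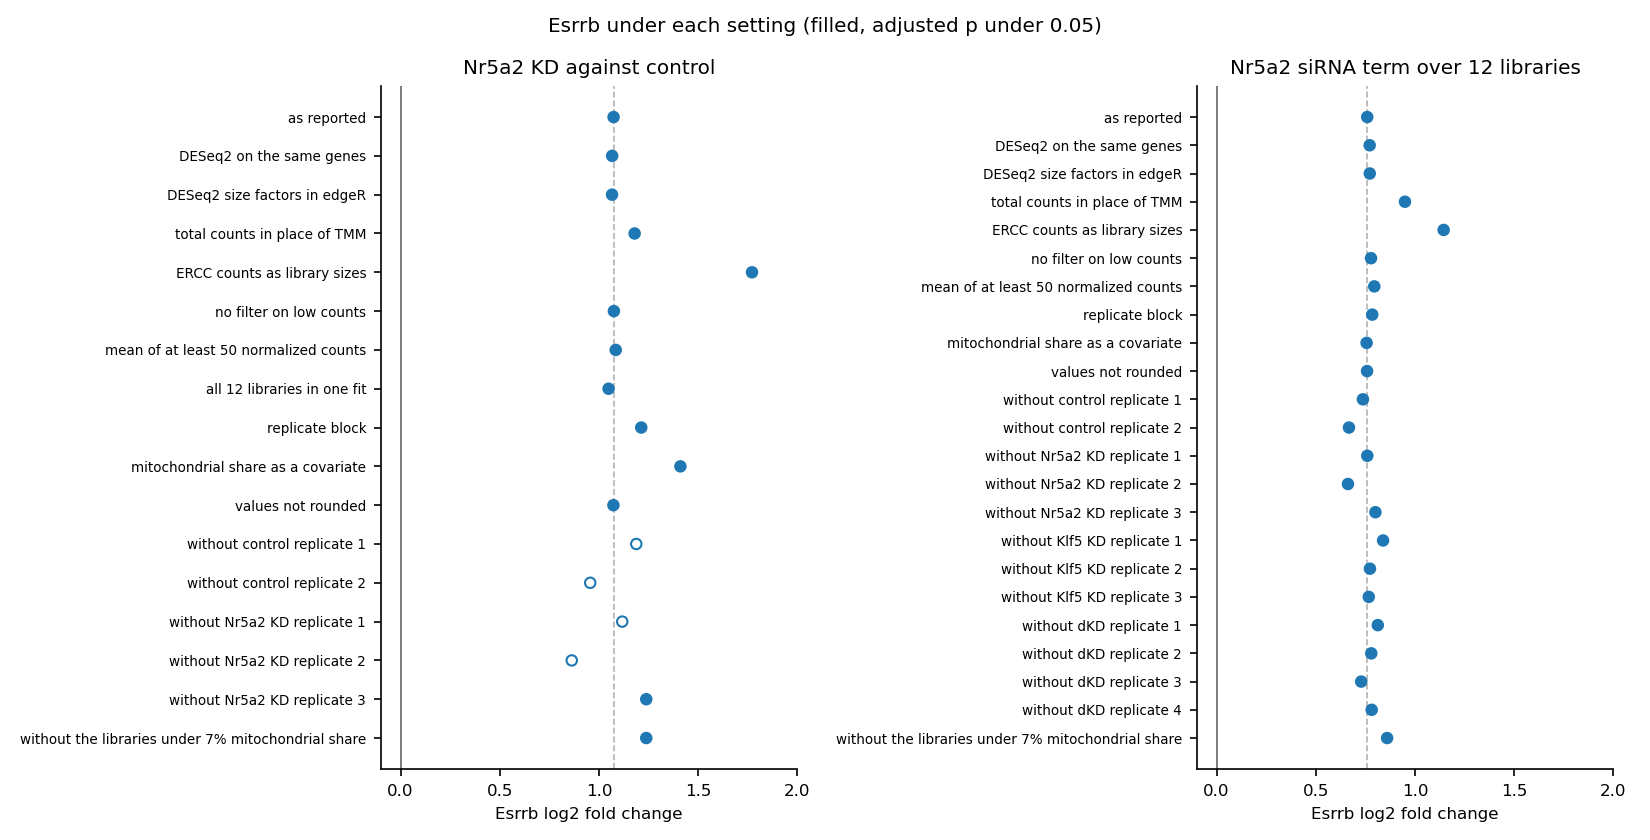
Esrrb log2 fold change (horizontal axes) under each setting (vertical axes), for Nr5a2 KD against control on the left and for the Nr5a2 siRNA term over 12 libraries on the right. Filled points have an adjusted p under 0.05 and the dashed line is the value as reported: 4 of the 5 fits without 1 library lost the call on the left, and none lost it on the right.

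**Figure D3:**
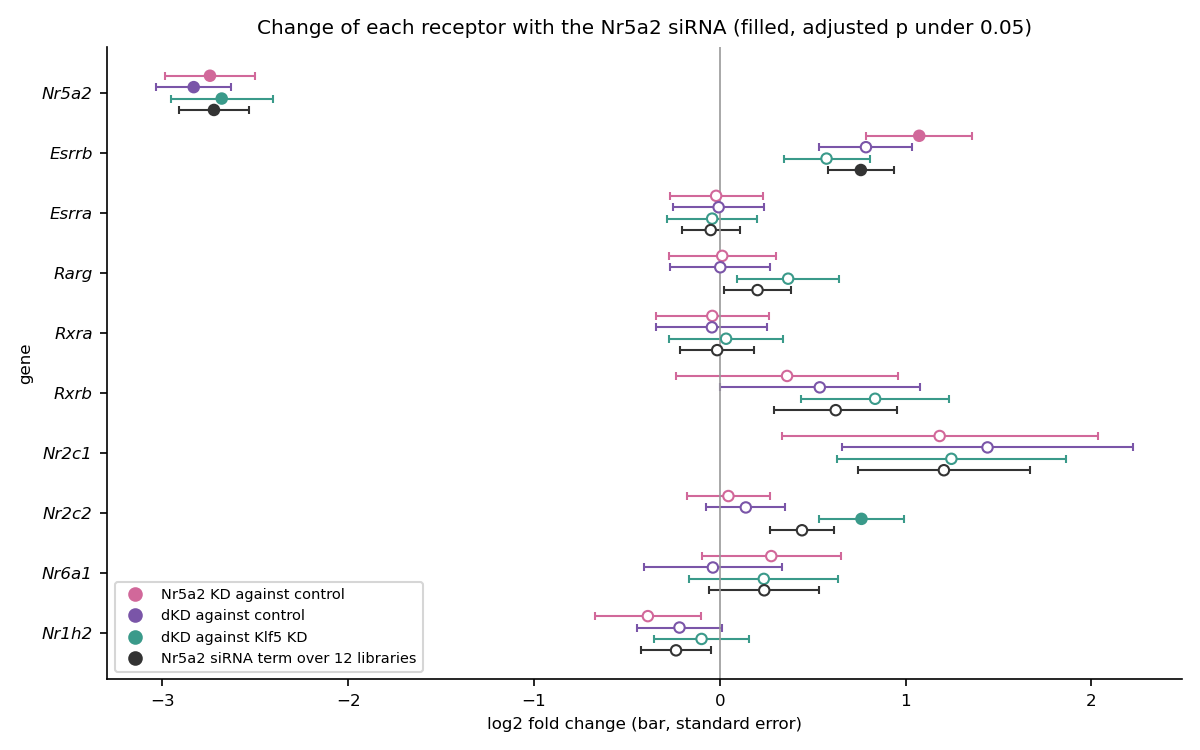
Log2 fold change (horizontal axis, bars give the standard error) of the 10 receptors (vertical axis) in 3 comparisons of groups and in the Nr5a2 siRNA term over 12 libraries, by colour. Filled points have an adjusted p under 0.05, which holds for Nr5a2 in all 4, Esrrb in 2 and Nr2c2 in 1.

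Esrra, the closest relative of Esrrb in the group and a regulator of mitochondrial and energy genes, stayed near its control level. It was at 25.1 and 24.1 CPM in control, 26.0, 22.5 and 22.9 in Nr5a2 KD, 27.7, 25.5 and 20.8 in Klf5 KD, and 19.5, 24.2, 26.8 and 24.7 in dKD. All groups overlapped. In Nr5a2 KD the log2 fold change was -0.02 (SE 0.251, adjusted p = 0.974), with a 95% interval of 0.702- to 1.39-fold, and -0.05 (SE 0.156, adjusted p = 0.864) for the siRNA term over 12 libraries, where the interval narrowed to 0.782- to 1.20-fold. A 2-fold change of Esrra lies outside both intervals. Esrra overlaps Trmt112 and Mir6990, and its counts held fractions shared with another gene in 10 libraries.

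The retinoid receptors did not pass in any comparison. Rarg, which binds retinoic acid, was at 15.0 and 15.8 CPM in control, 14.8, 16.9 and 14.0 in Nr5a2 KD, 10.6, 10.7 and 13.9 in Klf5 KD, and 13.2, 18.2, 13.7 and 15.0 in dKD. Klf5 KD was the only group with every value below both controls, as was the case for 14.1% of 14830 genes. That difference did not pass (log2 fold change -0.39, SE 0.328, adjusted p = 0.760). Rxra, an obligate partner of several of the other receptors, ranged from 8.20 to 15.0 CPM over the 12 libraries without a group standing apart, and changed by -0.04 in Nr5a2 KD (SE 0.305, adjusted p = 0.958) and by -0.01 over 12 libraries (SE 0.200, adjusted p = 0.972). Rxrb, its relative, was at 1.51 and 5.49 CPM in control (10 and 41 counts), 4.00, 6.04 and 3.38 in Nr5a2 KD, 2.69, 2.71 and 3.08 in Klf5 KD, and 6.18, 4.67, 3.42 and 5.77 in dKD. The 2 controls spanned nearly the whole range of the other groups. Rxrb was higher in every dKD library than in every Klf5 KD library, but this did not pass (log2 fold change 0.84, SE 0.400, adjusted p = 0.200), nor did the siRNA term (0.62, SE 0.331, adjusted p = 0.196). In Nr5a2 KD against control the 95% interval of Rxrb ran from 0.571- to 2.90-fold, so that neither a loss nor a gain was detectable at this spread.

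The testicular receptors Nr2c1 and Nr2c2, orphan receptors that pair with each other, differed widely in level. Nr2c1 was at 0.907 and 0.535 CPM in control, 1.18, 1.92 and 1.75 in Nr5a2 KD, 1.08, 0.707 and 0.586 in Klf5 KD, and 1.13, 1.56, 2.71 and 2.24 in dKD. Every library with the Nr5a2 siRNA was above every library without it, by values that rest on 4 to 23 counts. In Nr5a2 KD the log2 fold change was 1.18 (SE 0.850, adjusted p = 0.432), 1.44 in dKD against control (SE 0.784, adjusted p = 0.276) and 1.21 over 12 libraries (SE 0.461, adjusted p = 0.0674), none of which passed. The interval over 12 libraries ran from 1.23- to 4.32-fold.

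Nr2c2 passed in 1 comparison. It was at 69.6 and 56.0 CPM in control and at 63.5, 64.8 and 62.3 CPM in Nr5a2 KD. In Klf5 KD it was at 33.7, 47.9 and 38.4 CPM, and in dKD at 61.9, 73.0, 61.5 and 72.8 CPM. Klf5 KD was the group that stood apart, below the other 9 libraries. Against control alone, every Klf5 KD value was lower for 14.1% of all genes. Nr2c2 was 1.70-fold higher in dKD than in Klf5 KD (log2 fold change 0.76, SE 0.227, adjusted p = 0.0421), where 2 of 10 receptors passed beside 12.6% of 12904 genes (6.73% lower and 5.91% higher). With a change of at least 2-fold only Nr5a2 passed, beside 10.8% (5.41% lower and 5.38% higher). The call was lost in all 7 fits without 1 library (0.67 to 0.90, adjusted p = 0.0531 to 0.116), and without the libraries of low mitochondrial share (0.66, adjusted p = 0.151). With the replicate number as a block it was also lost (0.74, adjusted p = 0.205). In Nr5a2 KD against control the change was 0.05 (SE 0.223, adjusted p = 0.932), and in Klf5 KD against control it was -0.65 (SE 0.280, adjusted p = 0.565). The siRNA term over 12 libraries was 0.44 (SE 0.171, adjusted p = 0.0738, 95% interval 1.08- to 1.71-fold), which did not pass here. It passed in 6 of 22 other settings, among them DESeq2 (adjusted p = 0.0294) and total counts (adjusted p = 0.0201). The test of whether the change with the Nr5a2 siRNA differed between embryos with and without the Klf5 siRNA gave 0.73 for Nr2c2 (SE 0.304, unadjusted p = 0.0275, adjusted p = 0.950). Nr2c2 overlaps Mrps25 and Gm44249, and its counts held shared fractions in 5 libraries.

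No receptor passed in Klf5 KD against control, in dKD against Nr5a2 KD or in the interaction, and neither did any other gene (0% of 12838, 13017 and 14830 genes). The targeted Klf5 itself was at 24.4% of control in Klf5 KD (log2 fold change -2.03, SE 0.292, adjusted p = 0.0996) and at 40.2% of Nr5a2 KD in dKD (adjusted p = 0.999), so a large change could miss the threshold in these comparisons. At an unadjusted p under 0.05 in edgeR, 1 of the 9 receptors tested was found in the first (Nr2c2), 0 of 10 in the second and 1 of 10 in the third (Nr2c2), beside 1088, 447 and 715 genes, and DESeq2 passed 0 receptors in each. Nr2c1 was too low to be tested in Klf5 KD against control. Nr5a2 itself changed by -0.18 there (SE 0.311, adjusted p = 0.907).

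Nr6a1, known as a repressor of Pou5f1 in differentiating cells, varied within every group. It was at 13.9 and 18.3 CPM in control, 20.5, 26.9 and 10.5 in Nr5a2 KD, 6.55, 15.6 and 17.6 in Klf5 KD, and 13.5, 26.0, 11.2 and 11.0 in dKD. The groups overlapped throughout. Its log2 fold change was 0.28 in Nr5a2 KD (SE 0.373, adjusted p = 0.716) and -0.04 in dKD against control (SE 0.372, adjusted p = 0.968). Nr6a1 spans 7 other annotated genes, among them the antisense Nr6a1os, and reads were counted without strand. Its counts held shared fractions in 0 libraries.

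Nr1h2, a liver X receptor that senses oxysterols, was the member whose level went most with that of Nr5a2. It was at 39.2 and 45.1 CPM in control, 23.5, 42.7 and 28.7 in Nr5a2 KD, 27.6, 46.0 and 41.0 in Klf5 KD, and 36.8, 42.6, 32.9 and 29.2 in dKD. Both control libraries lay in the upper part of the range, but Nr5a2 KD 2 and dKD 2 lay there too. In Nr5a2 KD the log2 fold change was -0.39 (SE 0.283, adjusted p = 0.452), with a 95% interval of 0.520- to 1.12-fold, and -0.24 over 12 libraries (SE 0.189, adjusted p = 0.417).

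The make-up of the receptor mRNA was shifted in the libraries with the Nr5a2 siRNA. Nr5a2 made up 38.0% of the summed TPM of the 49 receptors in control and 37.6% in Klf5 KD, but 9.24% in Nr5a2 KD and 8.13% in dKD. The sum over the 49 was 153.3 and 153.5 TPM in control, and it reached 102.2 to 175 in Klf5 KD, 83.8 to 118 in Nr5a2 KD and 104 to 125 in dKD. The 9 members other than Nr5a2 came to 51.3 and 55.6 TPM in control, with 42.5 to 57.7 in Klf5 KD, 50.5 to 70.7 in Nr5a2 KD and 56.0 to 69.4 in dKD. In CPM, which weights the receptors by length and is scaled by TMM, the same sum was 199 and 197 in control, 146 to 185 in Klf5 KD, 187 to 246 in Nr5a2 KD and 193 to 235 in dKD. Both knockdowns with the Nr5a2 siRNA overlapped the control in CPM, although the dKD mean was above the control mean there too. Only in TPM was the sum higher in every dKD library than in both control libraries. Esrrb went from 3.35% of the receptor total in control to 11.4% in Nr5a2 KD and 8.82% in dKD, with 4.55% in Klf5 KD. The total includes Nr5a2, so the share of a receptor at an equal level rises when Nr5a2 falls, and that of Esrra went from 5.76% to 9.43% in Nr5a2 KD at an almost equal CPM. In the order of levels Esrrb moved from 8th in control to 3rd in Nr5a2 KD (11.9 ± 2.50 TPM), above Nr5a2 itself at 6th (9.56 ± 1.52 TPM). The 3 of the 10 members introduced above as binding a single extended hexamer were Nr5a2, Esrrb and Esrra. They summed to 72.3 ± 2.36 TPM in control (n = 2), 31.1 ± 3.38 in Nr5a2 KD (n = 3), 67.6 ± 21.8 in Klf5 KD (n = 3) and 30.5 ± 5.15 in dKD (n = 4). Receptors outside the 10 were not included in this sum. The gain in Esrrb mRNA was smaller than the loss of Nr5a2 mRNA, as Esrrb and Esrra together came to 14.0 TPM in control and 21.6 TPM in Nr5a2 KD.

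**Figure D4:**
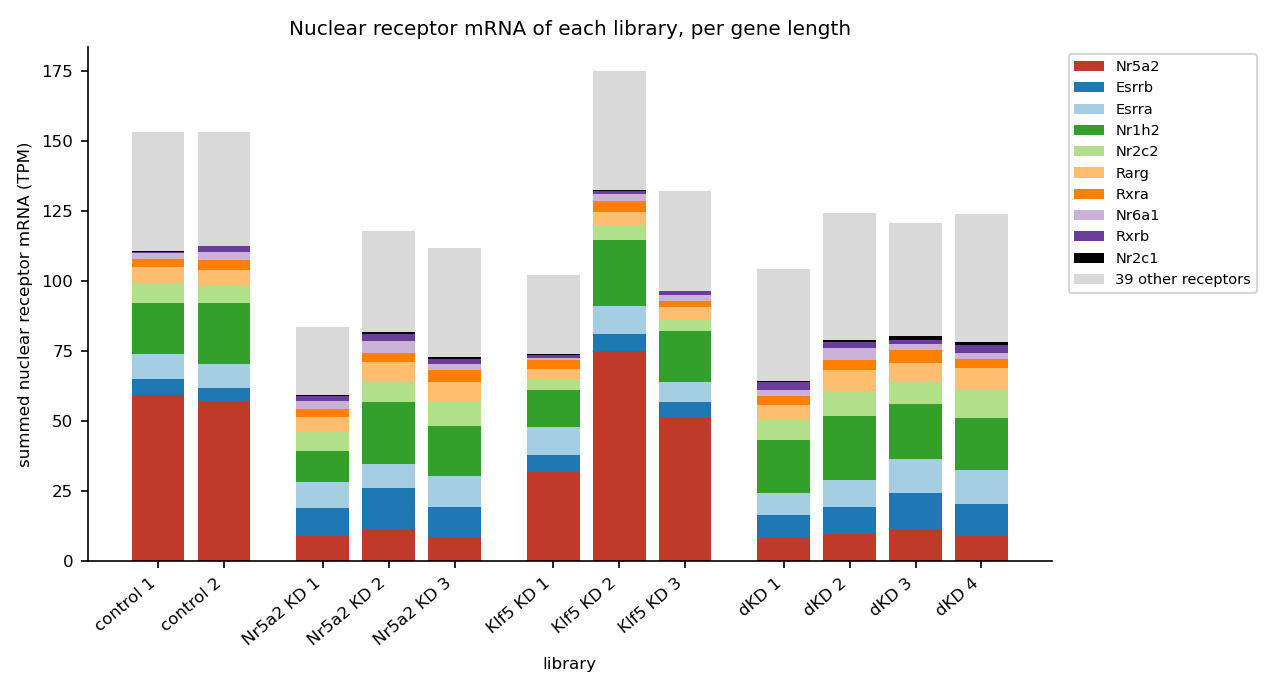
Summed mRNA of the 49 nuclear receptors in TPM (vertical axis, from 0) in each of the 12 libraries (horizontal axis), stacked by gene, with the 39 receptors outside the group in grey. The Nr5a2 segment shrinks from 57.1 and 59.5 TPM in control to between 8.38 and 11.5 TPM in the 7 libraries with its siRNA, and the Esrrb segment is 4.76 to 6.25 TPM without and 8.14 to 14.8 TPM with it.

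Most of the other 39 receptors were too low to test. In Nr5a2 KD against control 9 were tested and 1 passed, beside 9.03% of all genes. Nr4a3, an orphan receptor known as an early response gene, fell. It had 11 and 22 counts in control, 0, 2 and 0 in Nr5a2 KD, 2, 7 and 9 in Klf5 KD, and 3, 12, 0 and 7 in dKD, where none of the 12 tested passed by edgeR and 2 had an unadjusted p under 0.05, as had 3432 of 13724 genes. The Nr5a2 KD libraries were the lowest as a group, and dKD overlapped the control at these low counts. In Nr5a2 KD against control, Nr4a3 passed the low-count filter only through the control libraries, where it was high. The count of 1 in 9 therefore cannot be weighed against the share of all genes. Nr1d2, a heme-binding repressor of the circadian clock and the second most abundant receptor, was at 85.9 and 63.2 CPM in control and at 36.6, 59.1 and 29.7 CPM in Nr5a2 KD. These values did not overlap, as for 41.1% of all genes, and the test was not passed (log2 fold change -0.81, adjusted p = 0.113). Nr1h3, the other liver X receptor, and Rarb were at means of 14.6 and 14.5 CPM in control and did not pass. Over all 12 libraries, 2 of 12 passed, beside 21.9% of all genes, Nr2f2 higher (log2 fold change 2.06, adjusted p = 0.00952) and Nr1h4 lower (-1.92, adjusted p = 0.0228). Both were picked here after their values were seen, and both were low, at 0.153 and 0.669 CPM in control for Nr2f2 and 2.42 and 3.08 CPM for Nr1h4.

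Nuclear receptors act through coactivators and corepressors, of which 16 of the 19 listed were tested. In Nr5a2 KD against control 1 was lower and none higher, no larger a share than the 9.03% of all genes that passed, at a median log2 fold change of -0.26. Ncoa6, a coactivator, fell from 24.3 and 26.4 CPM in control to 14.9, 10.3 and 11.9 CPM in Nr5a2 KD (log2 fold change -1.01, adjusted p = 0.0468). In Klf5 KD it was at 5.75, 20.2 and 13.6 CPM, and in dKD at 13.5, 15.1, 7.07 and 6.24 CPM (-1.24 for dKD against control, adjusted p = 0.0541). All 10 knockdown libraries lay below both controls. Taken group by group, this held for 21.6% of all genes in Nr5a2 KD, 18.7% in dKD and 14.1% in Klf5 KD. Those next by p in Nr5a2 KD did not pass: Prmt1, an arginine methyltransferase, changed by -1.15 (adjusted p = 0.0501), Tbl1x, a corepressor subunit, by -2.35 (adjusted p = 0.0800) and Ep300, an acetyltransferase, by -0.81 (adjusted p = 0.0855). In dKD against control none of the 16 passed by edgeR, with 2 at an unadjusted p under 0.05, beside 3432 of 13724 genes. In dKD against Klf5 KD 1 of 16 passed, beside 12.6% of all genes: Lcor, a corepressor named after its values were seen (-1.06, adjusted p = 0.0279). Over 12 libraries Lcor (-1.03, adjusted p = 0.0021) and Prmt1 (-0.80, adjusted p = 0.0171) were lower, beside 11.5% of all genes.

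Retinoic acid, the ligand of Rarg, is made from retinol by retinol and retinal dehydrogenases. Of 16 genes of retinoid metabolism only 3 could be tested in Nr5a2 KD against control, and 1 passed, beside 9.03% of all genes. Rdh1, a retinol dehydrogenase, had 0 counts in both control libraries. It passed the low-count filter only through Nr5a2 KD, where it was high, so the count of 1 in 3 cannot be weighed against that share. Rdh1 was at 3.41, 4.67 and 5.14 CPM in Nr5a2 KD, 0.180, 1.77 and 0.293 CPM in Klf5 KD, and 6.31, 6.93, 10.1 and 4.36 CPM in dKD. Every library with the Nr5a2 siRNA was above all others, as for 4.91% of all genes. Against a floor of 3 counts over the control group, Rdh1 was at least 20.7-fold higher in Nr5a2 KD and at least 32.5-fold higher in dKD. Rdh10, the most abundant of these genes, was at 59.5 CPM in control and 52.8 CPM in Nr5a2 KD, and Aldh1a3, a retinal dehydrogenase, changed by -0.54. Neither passed. Rdh11, named after its values were seen, was higher in dKD than in Klf5 KD (log2 fold change 2.33, adjusted p = 0.0199), as was Rdh1 (3.22, adjusted p = 0.00729), which makes 2 of the 4 tested there, beside 12.6% of all genes. Both passed the low-count filter there through dKD, where they were high, so this count cannot be weighed against that share.

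The 5 genes most like Nr5a2 over the 12 libraries, by Pearson's r of log2 CPM among 14830 genes, were Map2k6 (0.988), Rtn4r (0.987), Ftl1-ps1 (0.980), Tlk2 (0.979) and Gm47428 (0.979). These libraries fall into those with and without the Nr5a2 siRNA, so the values describe that split. Among the members r was 0.51 for Nr1h2, 0.13 for Esrra, 0.04 for Rxra, -0.02 for Nr6a1, -0.37 for Rarg, -0.57 for Nr2c2, -0.58 for Rxrb, -0.80 for Esrrb and -0.83 for Nr2c1. The member most like Nr5a2, Nr1h2, ranked 2951 among these genes.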

How the data were processed

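RNA-seq was analysed in 12 libraries of 8-cell embryos, grouped by their labels, with cDNA made by SMART-seq v4 without molecular identifiers or strand. The authors trimmed read pairs with Trim Galore 0.6.2, mapped them with STAR to GRCm38 and counted them over exons with featureCounts 2.0.1. The deposited table of each library gives estimated counts for genes, not normalized, in which a pair over several genes is split between them, and 7.30 to 8.66% of the genes in a library were not whole. They were rounded here before testing. Gene names came from GENCODE M21 (55141 of 55401 genes). The 10 receptors and the other lists were chosen with earlier results of these data known.

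Genes were filtered with filterByExpr (minimum count 10, minimum total 15), scaled by TMM and tested with edgeR 4.0.16 in R 4.3.3 (glmQLFit, glmQLFTest, two-sided), and p-values were adjusted after Benjamini and Hochberg across the genes tested. Each comparison of groups used only their libraries, and 2 fits over all 12 used both siRNAs as terms, without and with their product. A gene passed at an adjusted p under 0.05. The fit was tested on simulated data first. CPM used TMM factors over the 12 libraries, and correlations were taken on log2 CPM (prior count 2). Intervals are at 95%, from the SE and the normal distribution, and are approximate. With few libraries they can be narrower than the edgeR test implies. Nr2c1 in dKD against Klf5 KD had an interval of 1.03- to 5.47-fold at an unadjusted p of 0.0601. Bounds for genes at 0 use 3 counts over the group and cover counting error only.

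Named beside the 10 receptors and Klf5 were, of the other receptors, those that passed in a knockdown with Nr5a2 siRNA against control or reached 10 CPM in control, of the coregulators and retinoid genes the 4 with the smallest p in Nr5a2 KD, and the 5 genes most like Nr5a2. Others are marked in the text. Same-numbered libraries of Nr5a2 KD and dKD deviated together from their group means (correlations of 0.130, 0.221 and 0.254). Nr5a2 KD 3 and dKD 4, with different numbers, deviated together as much (0.264), and the labels do not say what the numbers share. Among the 4 libraries under 7% mitochondrial share, every pair from different groups deviated together (0.180 to 0.264). The cause was not tested. Alternatives were DESeq2 1.42.0, other library sizes (DESeq2 size factors, total counts, ERCC spike-ins), no low-count filter, a minimum mean of 50 normalized counts, a fold of at least 2, all 12 libraries in one fit, a replicate block, the mitochondrial share as a covariate, unrounded values and each library left out. Leaving out the 4 libraries under 7% mitochondrial share was chosen after seeing the data. No protein sequence was used here, and the P-box was found with Biopython 1.88 on GENCODE transcripts.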

Additional observations from a re-analysis of the deposited data

Results flagged for a closer look

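Nr6a1 in dKD was marked for a closer look because 1 library lay far from the other 3. The CPM values were 13.5, 26.0, 11.2 and 11.0, and the gap from dKD 2 to the nearest other library made up 0.832 of the whole range. Such a gap arises by chance in about 1 of 20 groups, and 11 groups of 4 libraries were tested (the 10 receptors and Klf5). Nr6a1 also reached 26.9 CPM in Nr5a2 KD 2, and its other values over the 12 libraries were 6.55 to 20.5 CPM. The cause was not tested.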

How the results depend on the processing

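Over 30 pairs of a receptor and a comparison, with 539 values under other settings, 476 kept their sign and side of the threshold, 15 no longer passed, 16 newly passed and 32 changed sign. The number of receptors that passed in Nr5a2 KD against control was 2, and 1 to 2 without 1 library. In dKD against control it was 1, and 2 with DESeq2, total counts or ERCC counts, each by adding Esrrb (0.77, 0.93 and 1.58 on the log2 scale). In dKD against Klf5 KD it was 2, and 3 with total counts or the mitochondrial share as a covariate, which added Esrrb. It was 1 with a fold of at least 2, ERCC counts, no filter, the replicate block, the libraries of low mitochondrial share left out, or 1 library left out (1 to 1). For the siRNA term it was 2, and 1 with a fold of at least 2, 4 with DESeq2, 4 with total counts, 5 with ERCC counts and 2 to 3 without 1 library. Nr2c1 and Nr2c2 were added with DESeq2, total counts and ERCC counts, and Rxrb with ERCC counts (1.05, adjusted p = 0.0465). Nr2c2 passed in 6 of the 22 other settings of this term, 5 of them with more than 1 library left out or none. It was thus also added in settings not named here. Klf5 KD against control, dKD against Nr5a2 KD and the interaction stayed at 0 in every setting.

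Signs changed only where no call had been made. In Nr5a2 KD against control Esrra was at 0.0863 with total counts, 0.76 with ERCC counts and 0.0063 without the libraries of low mitochondrial share, Rxra at 0.0699 and 0.75 with total and ERCC counts, Nr1h2 at 0.36 with ERCC counts and Rarg at -0.0128 in the fit over all 12 libraries. Without 1 library, Esrra spanned -0.0672 to 0.0232, Rxra -0.13 to 0.0468, Rarg -0.0616 to 0.0678, Rxrb -0.28 to 1.58, Nr2c2 -0.10 to 0.20 and Nr6a1 -0.0319 to 0.58. In dKD against control Rxrb spanned -0.10 to 1.76 and Nr2c2 -0.000822 to 0.30. For the siRNA term Esrra was at 0.14 and 0.36 and Rxra at 0.17 and 0.37 with total and ERCC counts, Rxra at 0.0052 with no filter, 0.0208 with the mean of at least 50 and 0.0651 with the replicate block, and Nr1h2 at 0.17 with ERCC counts. Without 1 library, Esrra spanned -0.11 to 0.0227 and Rxra -0.13 to 0.0762. Against ERCC counts the median of all genes was 0.82 in Nr5a2 KD against control and 0.45 for the siRNA term, and with total counts 0.15 and 0.22. Relative to these medians, Esrrb was higher by 0.96 and 0.69 with ERCC counts and by 1.03 and 0.73 with total counts.

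Same-numbered libraries of the other pairs of groups did not deviate together, and the block changed only the call on Nr2c2 in dKD against Klf5 KD. Nr2c1 and Rxrb rest on few counts, and 2 control libraries limit every comparison with control.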
